A study of Homo sapiens with 43 samples.

Results

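The regions described here are stretches of chromatin that carried acetylated lysine 27 of histone H3 (H3K27ac) in LK2 and NCI-H520 and in none of 11 other lung squamous cell carcinoma lines. The deposited H3K27ac peaks of 13 unmodified lines were merged into 114125 regions, and 2097 of these held a peak of LK2, a peak of NCI-H520 and no peak of any other line. Because the regions were selected on H3K27ac, their acetylation in the 13 lines is given as a description, without a test. Sox2, Brn2 and p63 peaks, and all peaks of the derived lines LK2_GFP and LK2_DNp63, took no part in the choice.

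The study mapped H3K27ac, Sox2, Brn2 and p63 by chromatin immunoprecipitation and sequencing (ChIP-seq) in established human lines labelled as lung squamous cell carcinoma, kept in standard medium with no treatment. LK2 and NCI-H520 each had 2 H3K27ac libraries, 1 Sox2 and 1 Brn2 library. HCC95, KNS62 and HCC2814 had 1 H3K27ac and 1 Sox2 library, and Calu-1, EBC-1, HARA, HCC2279, HCC2450, LC-1/SQSF, NCI-H2887 and SQ-1 had 1 H3K27ac library each. LK2_GFP and LK2_DNp63 had 1 H3K27ac and 1 Sox2 library each, and LK2_DNp63 also had 1 p63 library. The labels do not say how these derivatives were made, whether they were clones, or when they were collected. GFP is a fluorescent protein that commonly serves as a control, and DNp63 usually names the short p63 isoform of basal cells. No annotation of the files' genome build was used, so the cell type could not be checked against marker genes, and regions are named by their coordinates on hg19.

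H3K27ac marks the flanks of active promoters and enhancers. Enhancers that lie close together and carry long stretches of the mark are known as super-enhancers and often neighbour genes that define a cell's identity. Sox2 is a factor of the SRY-related HMG-box family that maintains stem and progenitor cells and is often gained in squamous tumours. Brn2 (POU3F2) is a POU-domain factor of neural progenitors. Sox and POU factors are known to bind neighbouring sites on DNA as partners, Sox2 with Oct4 in embryonic stem cells and with Brn2 in neural progenitors. p63 specifies basal and squamous epithelia and also works beside Sox2 in squamous cells.

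The 4 H3K27ac lists of LK2 and NCI-H520 held 16470 to 30641 peaks and those of the other lines 29473 to 43480. Depth is unknown because the files hold no read counts, so a region without the mark and a region missed at low depth cannot be told apart. Replicate 2 of LK2 had the fewest peaks. All libraries came from whole cultures, and the mark in fewer cells cannot be told apart from less of it per cell.

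Of the 2097 regions, 801 held a peak in all 4 libraries of the pair, 829 in 3 of them and 467 in 1 library of each line. LK2 replicate 1 held 1929 and replicate 2 held 1265. NCI-H520 replicate 1 held 1814 and replicate 2 held 1617. LK2 replicate 1 thus decided many of the regions, and the rule without it left 1276. Distances to the acetylation of other lines varied widely and were not compared with those of other regions. The nearest peak of another line was a median of 14.7 kb away, 120 regions had one within 1 kb and 384 had none within 50 kb. Just outside the rule were 669 regions of LK2 and NCI-H520 with a peak of exactly 1 other line, most often LC-1/SQSF (212 regions) and KNS62 (88) and least often SQ-1 (7).

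The regions had a median width of 2410 bp, with quartiles of 1362 and 3973 bp and a range of 487 to 59467 bp, and together covered 7151 kb. For comparison, the 14323 regions of LK2, NCI-H520 and at least 1 other line, called shared regions here, had a median of 3118 bp. Acetylation was longer in NCI-H520 than in LK2 in 1591 of the 2097 regions (75.9%), close to 74.9% of shared regions. The excess was larger, however. Over their whole lists the NCI-H520 libraries covered 48.4 and 51.0 Mb and those of LK2 29.1 and 24.6 Mb. Within the regions, the covered length in NCI-H520 was a median of 1.87 times that in LK2, against 1.41 times in shared regions, and it was more than 5 times that in LK2 in 414 regions (19.7%), against 5.50% of shared regions. The length in a line is the mean of its libraries, so a library without a peak lowers it, and the gap was smaller where every library held the region. In the 801 regions held by all 4 libraries the median ratio was 1.66, and 56 (6.99%) had more than 5 times the LK2 length.

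Sox2 was the factor most of these regions had in common. A Sox2 peak of LK2 or NCI-H520 lay in 1349 of the 2097 regions (64.3%), against a background of 9.00% of all merged regions. Brn2 peaks of either line lay in 430 (20.5%), against 2.70% of all merged regions, and both factors in 394 (18.8%), against 1.52%. Split by class, 955 regions held Sox2 alone (45.5%), 36 held Brn2 alone (1.72%), 394 held both and 712 held neither (34.0%). With the peaks of both lines pooled, Brn2 without Sox2 was therefore rare. Sox2 was present in 91.6% (95% Wilson interval 88.6 to 93.9) of the regions with Brn2, whereas Brn2 was present in 29.2% of those with Sox2. Among all merged regions, 1739 of the 3085 with Brn2 held Sox2, and 1739 of the 10276 with Sox2 held Brn2. Within a single line, 325 of the 400 regions with Brn2 of LK2 held Sox2 of LK2. For NCI-H520 it was 49 of 53. Intervals of shares given here cover counting error only. They treat regions or peaks as independent and are not tests between kinds of region.

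The Sox2 lists of both lines contributed, and the Brn2 lists did so very unequally. Sox2 peaks of both lines lay in 601 regions, of NCI-H520 alone in 526 and of LK2 alone in 222. Brn2 peaks of LK2 alone lay in 377 regions, of NCI-H520 alone in 30 and of both in 23. The Brn2 list of LK2 held 4819 peaks and that of NCI-H520 held 1298, and the gap was smaller with the 1298 top-scoring Brn2 peaks of each line, of which 137 of LK2 and 53 of NCI-H520 lay in the regions. With equal numbers of top Sox2 and Brn2 peaks from both lines, 8.15% of the regions held both factors. Taken by line, Sox2 and Brn2 of LK2 met in 325 regions and those of NCI-H520 in 49.

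Sox2 peaks of the other lines, in which the regions were chosen to lack H3K27ac, were rare there. A Sox2 peak of LK2 lay in 39.2% of them (95% interval 37.2 to 41.4) and one of NCI-H520 in 53.7% (51.6 to 55.9). HCC95, KNS62 and HCC2814 had Sox2 peaks in 2.67%, 0.763% and 2.10%. These 3 shares were 0.303, 0.122 and 0.430 times those over all merged regions, while LK2 and NCI-H520 stood at 9.34 and 7.77 times. The mean share was 46.5% ± 10.3 (SD, n = 2 lines) in LK2 and NCI-H520 and 1.84% ± 0.979 (SD, n = 3 lines) in the other lines, a difference of 44.7 percentage points. The two-sided exact permutation test over lines gave p = 0.1, the smallest value that 2 against 3 lines allow. The regions were selected to carry H3K27ac in the first pair of lines and none in the other 3, so the direction of this difference is not independent of the choice, and nothing rests on the test.

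**Figure D1:**
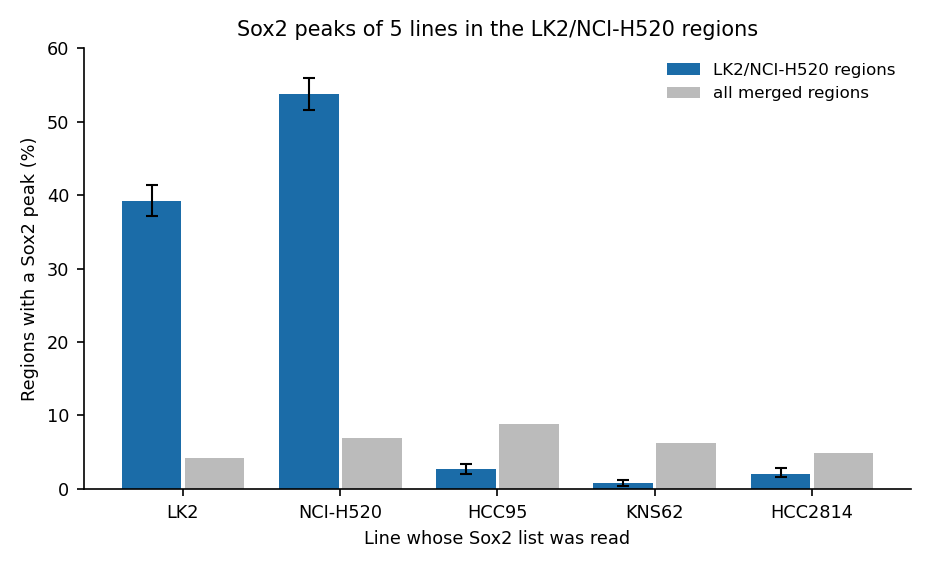
Share of regions with a Sox2 peak (%, vertical axis) for the Sox2 list of each of 5 lines (horizontal axis), in the 2097 regions of LK2 and NCI-H520 (blue bars, with 95% Wilson intervals) and in all 114125 merged regions (grey bars). Blue bars stand at 39.2% and 53.7% for LK2 and NCI-H520 and at 0.763% to 2.67% for the other 3 lines, below their own grey bars.

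Regions with both factors were the widest. The median width was 3588.5 bp with both factors, 2677 bp with Sox2 alone, 2427 bp with Brn2 alone and 1653 bp with neither. Of the 90 regions over 10 kb, 52 held both factors, 34 Sox2 alone, 2 Brn2 alone and 2 neither. Regions over 10 kb were thus 13.2% of those with both factors and 0.281% of those with neither. A wider region has more room for any peak, so the shares were read again by width. In quartiles from the narrowest to the widest, Sox2 lay in 45.9%, 55.6%, 70.4% and 85.5% of the regions, against 7.86%, 10.6%, 18.1% and 38.7% of shared regions of the same widths. Brn2 lay in 10.8%, 14.8%, 21.8% and 34.7%, against 1.07%, 5.73%, 10.7% and 18.4%. With the peaks of both lines pooled, each factor became more frequent with width and was more frequent than in shared regions at every width. For Brn2 this came from LK2. Over all widths, Brn2 of LK2 lay in 19.1% of the regions and 10.9% of shared regions, and Brn2 of NCI-H520 in 2.53% and 4.72%.

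**Figure D2:**
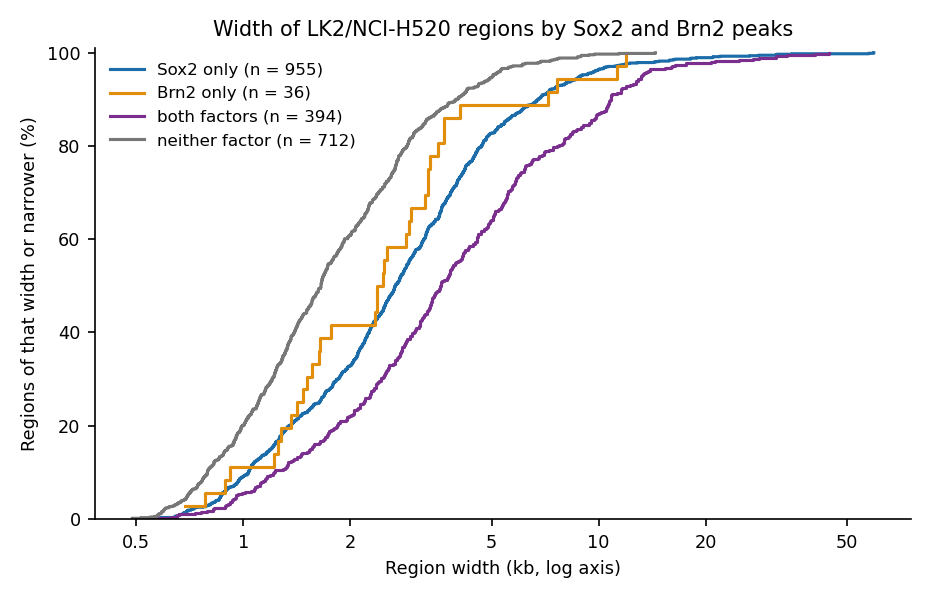
Cumulative share of regions (%, vertical axis) against region width (kb, log axis) for the 955 regions with Sox2 alone, 36 with Brn2 alone, 394 with both factors and 712 with neither. The curve of both factors lies farthest right (median 3588.5 bp) and that of neither factor farthest left (median 1653 bp).

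The classes also differed in how often libraries agreed. Regions with both factors held a peak in all 4 H3K27ac libraries in 57.9% of cases, those with Sox2 alone in 43.5% and those with neither in 20.5%. Peaks ranked by the authors' score within each list followed the same order. In NCI-H520 replicate 1 the strongest peak of a region had a median percentile rank of 84.3 with both factors, 74.6 with Sox2 alone and 48.1 with neither. In LK2 replicate 1 the ranks were 62.0, 41.7 and 32.1. Regions without either factor were thus the narrower and lower-scored part of the set.

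Within these regions Brn2 peaks sat on Sox2 peaks. Of the 455 Brn2 peaks of LK2 inside the regions, 343 overlapped a Sox2 peak of LK2 by at least 1 bp (75.4%, 95% interval 71.2 to 79.1). In shared regions 23.3% of 2133 Brn2 peaks did so, and in regions acetylated in all 13 lines 6.06% of 1370. NCI-H520 gave the same order from fewer peaks, with 39 of 53 (73.6%, 60.4 to 83.6) in these regions, 19.2% of 746 in shared regions and 13.8% of 588 in regions of all 13 lines. Over the whole LK2 list, 34 of the 482 top-scoring Brn2 peaks and 1889 of the other 4337 (43.6%) overlapped a Sox2 peak. Over the whole NCI-H520 list the counts were 28 of 130 and 208 of 1168 (17.8%). In LK2 the shared regions thus lay below the list as a whole. Intervals of counting error for these regions and for shared regions did not overlap in either line.

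Where a Brn2 and a Sox2 peak overlapped, their centres were close in every kind of region. They were a median of 91 bp apart in LK2 and 87.5 bp apart in NCI-H520 in these regions, and 103.75 and 100 bp apart in shared regions. Brn2 peaks with a Sox2 centre within 100 bp made up 40.4% in LK2 and 41.5% in NCI-H520, against 11.3% and 9.65% in shared regions. Sox2 peaks of LK2 covered 8.78% of the base pairs of these regions and those of NCI-H520 covered 9.83%, against 2.06% and 3.03% of shared regions. Sox2 was thus denser here, and the part of that density in the higher overlap was not tested. Divided by the share of base pairs that Sox2 covered, the overlap was 8.58 times in these regions and 11.3 times in shared regions for LK2, and 7.48 and 6.34 times for NCI-H520. The highest value this quotient can reach is lower where Sox2 covers more, so it does not compare the kinds of region on equal terms. The Brn2 peaks inside these regions had a median percentile rank by score of 58.7 for LK2, below 62.4 in shared regions and above 49.1 for the LK2 peaks outside these regions. For NCI-H520 the rank was 39.1, against 69.5 in shared regions. The Sox2 list of LK2_GFP, a separate library, overlapped 88.8% of the Brn2 peaks of LK2 in these regions and 32.0% of those in shared regions. That list covered 11.2 Mb against 5.46 Mb for Sox2 of LK2, and the part of this in the overlap was not tested. Brn2 chromatin was cross-linked with an added reagent and digested with micrococcal nuclease, per the labels' protocols, and the part of preparation in peak positions was not tested.

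**Figure D3:**
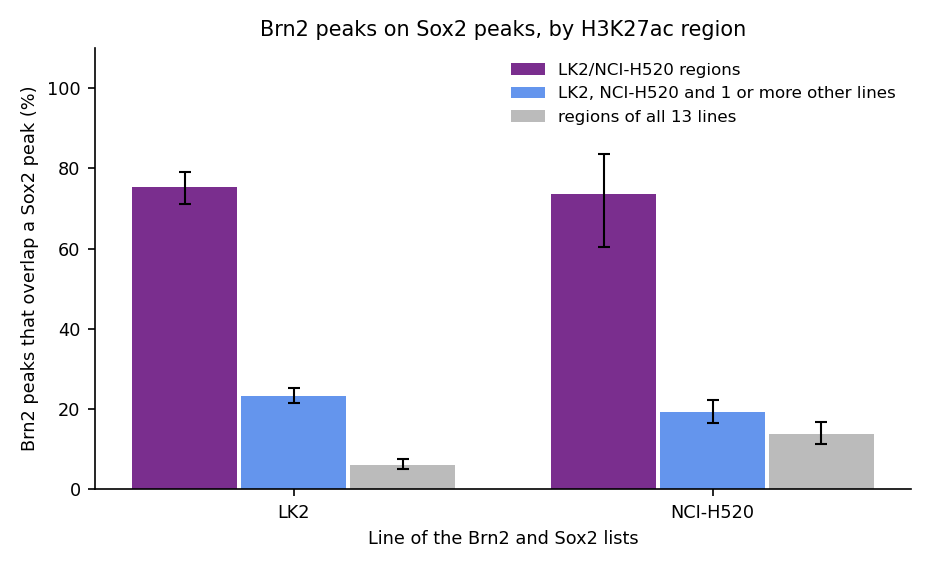
Share of Brn2 peaks that overlap a Sox2 peak of the same line (%, vertical axis, with 95% Wilson intervals) for LK2 and NCI-H520 (horizontal axis), by kind of H3K27ac region. Bars reach 75.4% and 73.6% in the 2097 regions, 23.3% and 19.2% in shared regions, and 6.06% and 13.8% in regions of all 13 lines.

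Read from the factor lists, the strongest Sox2 peaks were the most likely to lie in these regions, and the strongest Brn2 peaks the least. The regions held 846 of the 7611 Sox2 peaks of LK2 (11.1%) and 1288 of the 12048 of NCI-H520 (10.7%). By score, the top 10% of Sox2 peaks lay in them in 21.0% of cases in LK2 and 22.5% in NCI-H520, and the lowest 10% in 7.37% and 6.90%. Brn2 differed at the top of its list. In LK2, 15.3% of Brn2 peaks in the next 10% lay in these regions, but 10 of the 482 top peaks (2.07%) did. In NCI-H520 none of the 130 top Brn2 peaks did, which allows a share of up to 2.31%. The top 10% lay instead in regions acetylated in all 13 lines, with 387 of 482 peaks in LK2 (80.3%) and 116 of 130 in NCI-H520 (89.2%). Of the top Brn2 peaks of LK2, 7.05% overlapped a Sox2 peak of LK2, against 53.4% in the next 10%. NCI-H520 went the other way, with 21.5% of the top peaks and 11.5% in the next 10%.

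A set of 18 regions held Sox2 and Brn2 peaks of both lines. They were 3.14 to 40.7 kb wide with a median of 7.74 kb, 16 of them held a peak in all 4 H3K27ac libraries, and acetylation was longer in NCI-H520 than in LK2 in 17. The widest lay at chr1:219584673-219625405, where H3K27ac covered 3.86 and 4.02 kb in the LK2 libraries and 40.1 and 40.7 kb in those of NCI-H520. At chr3:83444-117319 the LK2 libraries covered 4.13 and 5.87 kb and the NCI-H520 libraries 33.7 and 32.6 kb. Both regions were short in LK2 and broad in NCI-H520. At chr16:50485359-50516849 the lengths were 15.1 and 14.2 kb in LK2 and 31.4 and 30.4 kb in NCI-H520, and at chr11:20322912-20351109 they were 10.3 and 15.1 kb in LK2 and 28.0 and 28.0 kb in NCI-H520. The region at chr6:99248275-99252830 was the exception of the 18, with 3.60 and 4.27 kb in LK2 and 3.53 and 2.06 kb in NCI-H520.

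Of the 20 regions that were the 5 widest of their class, 19 had more covered length in NCI-H520 than in LK2, against 75.9% of all 2097 regions. A choice by merged width is not independent of length in the line whose lists cover more, so this count is a description. The widest region of all, chr18:39237389-39296855, held 4 Sox2 peaks of NCI-H520 and no Brn2 peak, and H3K27ac covered 21.0 and 27.8 kb in LK2 and 59.5 and 53.1 kb in NCI-H520. At chr16:74051384-74108971 the LK2 libraries covered 1.74 and 2.44 kb and the NCI-H520 libraries 55.2 and 57.6 kb. This region held 7 Sox2 peaks of NCI-H520 and 1 of LK2. At chr6:23625743-23660722 the lines were closer, with a mean of 23.7 kb over the libraries of LK2 and 34.5 kb over those of NCI-H520. With Brn2 alone, the widest region was chr17:63711526-63723437, with 0.655 and 0 kb in LK2 and 11.9 and 6.42 kb in NCI-H520. With neither factor, it was chr2:135162298-135176744, with 4.36 and 5.48 kb in LK2 and 14.3 and 13.7 kb in NCI-H520. One region of the last class, chr12:116191553-116202964, rested on a single NCI-H520 library, with 10.9 kb in replicate 1 and 0 in replicate 2.

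Part of the regions lay near another region of the set. Joining regions less than 50 kb apart left 1324 single regions and 321 clusters, which held 773 of the 2097 regions (36.9%). Of the clusters, 243 had 2 regions, 51 had 3, 20 had 4 and 7 had 5 or more, up to 10. Regions with both factors lay in clusters in 42.9% of cases, those with neither in 37.8%, those with Sox2 alone in 34.1% and those with Brn2 alone in 9 of 36. Clustering was thus not limited to regions with a peak of either factor.

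The largest cluster spanned chr18:37551796-37780087, 228.3 kb with 10 regions that covered 80.9 kb. H3K27ac covered 26.2 and 34.1 kb of its regions in LK2 and 77.5 and 64.9 kb in NCI-H520. Its regions held 4 Sox2 peaks of LK2, 9 of NCI-H520 and 1 Brn2 peak of LK2, and peaks between the regions are not counted. Within the span, 3 merged regions held peaks of other lines. Clusters of 9 regions lay at chr8:38296350-38447580, chr17:63387762-63592610 and chr8:57358007-57512162. The last of these had no peak of any of the 11 other lines anywhere in its 154.2 kb. The same held for clusters at chr9:73310035-73415652 (6 regions), chr5:116095543-116204095 (4 regions) and chr21:33279693-33362849 (4 regions). The regions of the chr21 cluster held 1 Sox2 and 1 Brn2 peak of LK2, and 4 Sox2 and 2 Brn2 peaks of NCI-H520.

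**Figure D4:**
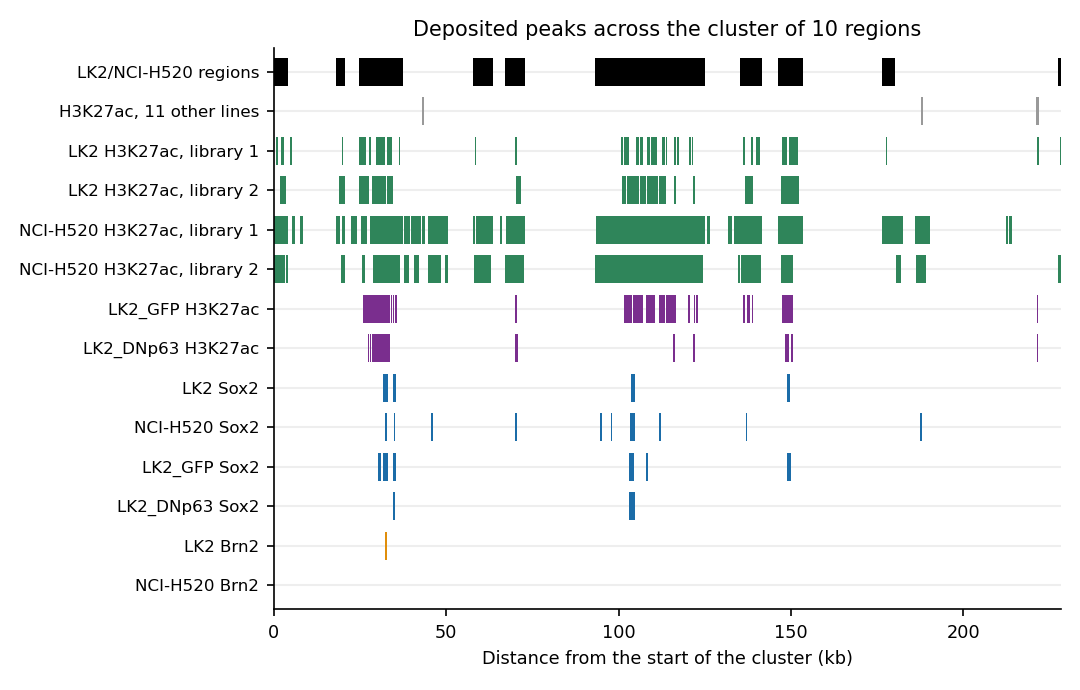
Deposited peaks across the 228.3 kb cluster of 10 regions on chromosome 18, one row per library (vertical axis) against distance from the start of the cluster in kb (horizontal axis). Green rows are H3K27ac of LK2 and NCI-H520, purple rows H3K27ac of the derivatives, blue rows Sox2 and orange rows Brn2. NCI-H520 libraries cover 77.5 and 64.9 kb of the regions, LK2 libraries 26.2 and 34.1 kb, LK2_GFP 28.1 kb and LK2_DNp63 9.26 kb.

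LK2_GFP gave a separate view of the regions in an LK2 background. H3K27ac of LK2_GFP was present in 1233 of the 2097 regions (58.8%), against a background of 76.7% of all regions of LK2 and 92.5% of shared regions. The regions were thus found again less often than LK2 regions in general, but more often than regions of LK2 alone (35.5%). By class the share was 78.2% with both factors, 57.8% with Sox2 alone, 61.1% with Brn2 alone and 49.3% with neither, and it was 77.0% for the 801 regions held by all 4 libraries. LK2_GFP peaks covered at least 50% of the width in 25.4% of the regions. Sox2 of LK2 was found again more often than H3K27ac. Of the 823 regions with a Sox2 peak of LK2, 96.1% also had one in LK2_GFP, and of the 526 with a Sox2 peak of NCI-H520 and none of LK2, 43.3% did. The Sox2 list of LK2_GFP held 12034 peaks and that of LK2 held 7611, and the part of list size was not tested. The Sox2 shares were not set beside those of other regions, so they are not read as particular to this set.

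In LK2_DNp63 the regions carried H3K27ac less often. A peak was present in 733 of the 2097 (35.0%), against 69.7% of all regions of LK2 and 89.2% of shared regions. Of the 1233 regions acetylated in LK2_GFP, 564 had no peak in LK2_DNp63 (45.7%, 95% interval 43.0 to 48.5), against 18.6% of all merged regions with a LK2_GFP peak, 6.33% of shared regions and 0.788% of regions of all 13 lines. These are called lost, and the 669 with a peak in both are called kept. Regions of LK2 alone were lost in 51.9% of cases. Loss fell as the number of lines sharing a region rose, from 33.9% with 3 lines to 4.01% with 12 lines, apart from a step from 9.98% with 8 lines to 10.5% with 9. There was 1 library per derivative, so no test between them was possible, and the 2 lists held 33454 and 30149 peaks.

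Loss moved with the score of the LK2_GFP peaks, which ranked lower in these regions than in shared ones. The strongest LK2_GFP peak of a region had a median percentile rank of 56.4, against 74.8 in shared regions, and of 72.9 in kept and 39.2 in lost regions. Losses were therefore compared within 5 equal classes of rank. From the weakest to the strongest class, 79.6%, 71.2%, 58.8%, 30.7% and 8.10% of the regions were lost, against 40.5%, 29.1%, 10.9%, 1.91% and 0.297% of shared regions. Their 95% intervals, of counting error only, did not overlap in any class. Regions of LK2 alone were lost in 75.9%, 70.0%, 54.0%, 30.1% and 22.3%, near the values of the LK2 and NCI-H520 regions except in the strongest class.

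**Figure D5:**
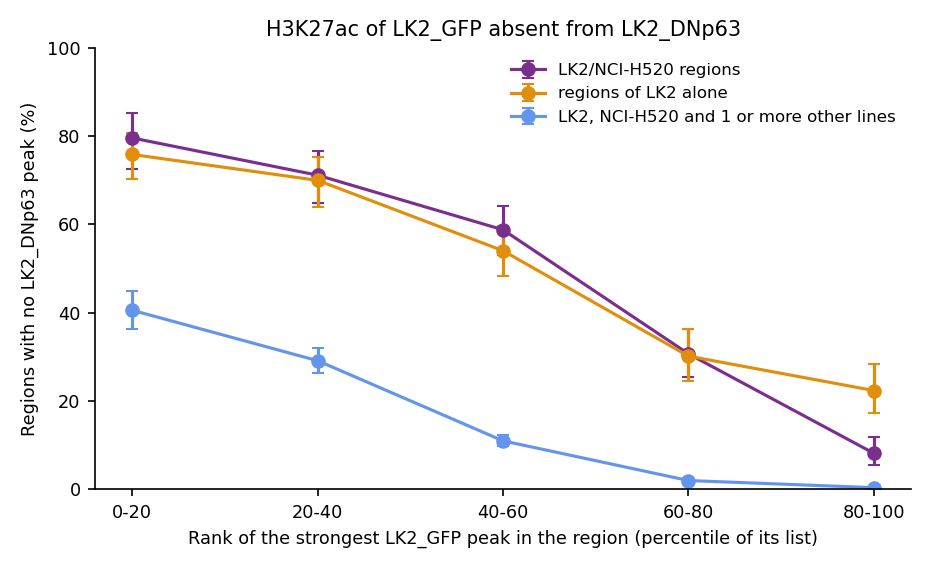
Share of regions acetylated in LK2_GFP that had no LK2_DNp63 peak (%, vertical axis, with 95% Wilson intervals) in 5 equal classes of the score rank of the strongest LK2_GFP peak (percentile, horizontal axis). The regions of LK2 and NCI-H520 run from 79.6% to 8.10%, near regions of LK2 alone (75.9% to 22.3%) and above shared regions (40.5% to 0.297%).

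Regions with both factors were lost in 33.8% of cases (95% interval 28.7 to 39.2), against 49.1% (44.9 to 53.3) with Sox2 alone, 50.7% (45.5 to 55.9) with neither and 11 of 22 with Brn2 alone. Their LK2_GFP peaks were also the strongest, with a median percentile rank of 73.9 against 53.4 with Sox2 alone and 45.6 with neither, and within a rank class the shares lay closer together. In the middle rank class 57.1% of regions with both factors and 57.3% of those with Sox2 alone were lost, in the next 33.8% and 29.8%, and in the strongest 6.35% and 10.7%, with overlapping intervals in each.

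Kept regions mostly shortened. Of the 669, 434 (64.9%) had less covered length in LK2_DNp63 than in LK2_GFP, against 38.6% of shared regions, and the median ratio was 0.862 against 1.07. Summed over all 2097 regions, H3K27ac of LK2_DNp63 covered 59.1% of the length it covered in LK2_GFP, whereas in shared regions it covered 102.4%. The whole list of LK2_DNp63 covered 36.6 Mb and that of LK2_GFP 33.8 Mb. The mark thus covered less of the LK2 and NCI-H520 regions, with no such drop in shared regions. Of the 864 regions without a LK2_GFP peak, 64 had one in LK2_DNp63 (7.41%). The share was 3.82% of all merged regions without a LK2_GFP peak, 17.1% of such LK2 regions and 34.5% of such shared regions.

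Sox2 peaks were also fewer in LK2_DNp63, here as elsewhere. Sox2 of LK2_GFP lay in 1170 of the 2097 regions and was absent from LK2_DNp63 in 752 of these (64.3%), against 67.7% of all merged regions with a LK2_GFP Sox2 peak. With the same number of top-scoring peaks from both Sox2 lists the shares were 43.7% and 40.6%. Shared regions gave 68.1% with all peaks and 37.2% with the same number of top-scoring peaks. The fall of Sox2 was therefore near that over all merged regions, whereas H3K27ac was lost more often here. Unlike H3K27ac, Sox2 was not compared within classes of score. Its LK2_GFP peaks ranked higher in these regions (median percentile 66.6) than in other merged regions (51.3), and the part of this was not tested. Within the regions, H3K27ac was lost in 85 of 355 regions that kept Sox2 (23.9%), in 270 of 488 that lost Sox2 (55.3%) and in 209 of 387 without Sox2 in either derivative (54.0%). In the middle class of LK2_GFP rank the shares were 37.1%, 70.0% and 59.4%, and in each rank class the regions that kept Sox2 had the lowest share. Intervals of regions that kept and that lost Sox2 overlapped in the 2 weakest classes and in none of the other 3. Those of regions that kept Sox2 and of regions with none in either derivative overlapped in every class but the middle one. In shared regions the order differed, with 7.85% lost where Sox2 was kept, 13.4% where it was lost and 5.29% with none in either derivative.

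Peaks of p63 in LK2_DNp63 were rare in the regions. They lay in 32 of 2097 (1.53%), against 2.13% of all merged regions and 4.88% of shared regions. Of the 32 regions, 23 were kept, 6 were lost, 1 was gained and 2 had no peak in either derivative. Of the 2426 merged regions with p63, 956 were kept, 94 lost, 490 gained and 886 had no peak in either. For the 699 shared regions with p63 the counts were 629, 28, 24 and 18. Of the 564 lost regions, 558 therefore held no p63 peak. Among all merged regions, 94 of the 3895 lost ones held a p63 peak, so p63 was rare in lost regions in general. Among the lost regions with p63, the widest was chr14:79311902-79328283, where H3K27ac covered 9.38 kb in LK2_GFP and 0 in LK2_DNp63. Among the kept ones, chr16:50634034-50642075 rose in length from 1.06 to 5.94 kb, while chr10:413962-422187 fell from 6.79 to 2.64 kb.

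The widest regions showed the range of outcomes. H3K27ac at chr14:79329091-79373466 covered 18.5 kb in LK2_GFP and 2.36 kb in LK2_DNp63, and chr3:83444-117319 covered 4.26 kb and 0. At chr16:50485359-50516849 the lengths were 14.5 and 13.4 kb, at chr11:20322912-20351109 they were 13.2 and 12.9 kb, and at chr2:135162298-135176744, with neither factor, 10.6 and 10.1 kb. The first pair lost most or all of the covered length and the other 3 nearly none. Of the 18 regions with Sox2 and Brn2 of both lines, 16 were acetylated in LK2_GFP, 12 were kept, 4 were lost, and 15 had less covered length in LK2_DNp63. All 18 had a Sox2 peak in LK2_GFP and 9 had one in LK2_DNp63.

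Clusters varied too. The chr18 cluster of 10 regions held 28.1 kb of H3K27ac in LK2_GFP and 9.26 kb in LK2_DNp63, and the cluster at chr20:22407224-22512950 held 5.95 and 0.893 kb. The cluster at chr17:63387762-63592610 went the other way, from 16.2 to 32.25 kb. Of its 9 regions, 7 were acetylated in LK2_GFP and 8 in LK2_DNp63, and none held a p63 peak. Of the 10 clusters named by size it was 1 of 2 that were longer in LK2_DNp63. The other, at chr9:73310035-73415652, covered 0.886 kb in LK2_GFP and 1.63 kb in LK2_DNp63 against 19.3 and 25.1 kb in the LK2 libraries, so it was already short in LK2_GFP.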

How the data were processed

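Of the 43 samples in the labels, 27 have a peak list and were used, and 16 inputs were not analysed here. Each list gives coordinates and a score per peak. The score is deposited by the authors with a scaling and threshold not given in the sources used here, and ranked peaks only against others of their list. Peak names begin with MACS, per the file contents. Bowtie2 and hg19 (GRCh37) are named in the submitters' processing notes. The files hold no read counts, so depth is unknown, and Wilson intervals cover counting error only.

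Chromosomes 1 to 22 and X were kept, which left out 2092 of 652792 peaks. Peaks of the 15 H3K27ac lists were merged where they overlapped, and a factor was assigned by an overlap of at least 1 bp. The labels do not say that replicates were separate cultures, so the spread may be technical. The regions and all lists were chosen with earlier results of these data known. The regions named were the 5 widest of each class, the 10 clusters with most regions, all regions with both factors in both lines, and the 5 widest lost and 5 widest kept with p63. Examples printed from these were picked after their values were seen. Motifs and genes were not analysed here, since no genome of the files' build was used. Code was checked on simulated intervals and ran in Python 3.11.15 with pandas 2.3.3, numpy 2.4.6 and scipy 1.17.1. Alternatives changed the merging, libraries, overlap rules and numbers of peaks.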

Additional observations from a re-analysis of the deposited data

Results flagged for a closer look

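Brn2 moved in opposite directions in the 2 lines when the regions of LK2 and NCI-H520 alone were set beside the regions of all 13 lines. In LK2, Brn2 peaks lay in 19.1% of the 2097 regions and in 12.7% of the regions of all 13 lines, a difference of 6.34 percentage points. In NCI-H520, Brn2 peaks lay in 2.53% and 6.92%, a difference of -4.39 percentage points. Sox2 shares of the same lines were both higher in the 2097 regions, by 33.9 and 36.6 percentage points. Each line had 1 Brn2 library, and the difference between the lines was not tested. The Brn2 list of LK2 held 4819 peaks and that of NCI-H520 held 1298. In both lines the top 10% of Brn2 peaks lay mostly in regions of all 13 lines, with 80.3% in LK2 and 89.2% in NCI-H520. The part of list size in the opposite directions was not tested.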

How the results depend on the processing

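The number of regions was 2097 and ranged from 1276 to 1972 with 1 library of the pair left out, lowest without LK2 replicate 1. It was 801 with a peak required in both libraries of both lines and 1071 with at least 50% of each region covered in each line. It stayed within 1.5 times with gaps of 500 bp merged (1896), no other line within 1 kb (1977) and equal numbers of top peaks (1711). The shares of regions with Sox2 alone, Brn2 alone, both and neither were 49.5%, 0.763%, 8.15% and 41.6% with equal numbers of top factor peaks, 23.7%, 3.58%, 15.5% and 57.2% with factor peaks of LK2 alone, and 51.4%, 0.191%, 2.34% and 46.1% with those of NCI-H520 alone. With peak centres inside the region, Sox2 alone, both and neither were 41.0%, 16.5% and 40.6%, and for regions held by all 4 libraries, added after seeing the data, 51.8%, 28.5% and 18.2%. Leaving out 1 library gave 45.7% to 48.6% for Sox2 alone, 1.65% to 1.93% for Brn2 alone, 18.7% to 25.2% for both and 26.5% to 33.7% for neither. The median width with both factors was 2.17 times that with neither, and 2.48 times by covered length in LK2 replicate 1.

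Regions acetylated in LK2_GFP made up 25.4% where at least 50% of the region had to be covered and 77.0% of those held by all 4 libraries, and 59.4% to 71.6% with 1 library left out. The share lost in LK2_DNp63 was 52.5% with at least 50% covered, 40.4% for regions held by all 4 libraries and 40.1% for those in both LK2 libraries, and 40.7% to 45.9% with 1 library left out. It was 43.6% with equal numbers of top peaks. Overlap of LK2 Brn2 peaks with Sox2, with alternatives added after seeing the data, was 86.9% with equal numbers of top peaks, 88.8% with LK2_GFP Sox2 peaks and 40.4% for centres within 100 bp, and for NCI-H520 67.9% with equal numbers of top peaks and 41.5% for centres within 100 bp. Leaving out 1 library gave 74.9% to 76.0% in LK2 and 72.5% to 77.5% in NCI-H520. The difference in Sox2 share between lines was 37.4 to 51.9 percentage points with 1 line or library left out, 39.6 with equal numbers of top peaks and 59.7 for regions held by all 4 libraries. The number of clusters was 217 at the shorter joining distance tried and 372 at 100 kb. The causes of these shifts were not tested. No paired analysis was possible because replicate numbers exist only for H3K27ac of LK2 and NCI-H520, which were not tested against each other. Motif shares were not run. Depth is unknown, so its limit on these counts could not be given.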

Other observations

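A few long LK2 regions were nearly absent from LK2_GFP, a pattern picked out after the values were seen. Among the 73 regions that H3K27ac covered for at least 5 kb in LK2, 4 had less than 10% of that length in LK2_GFP (5.48%), against 3 of 359 such shared regions (0.836%). The longest was chr18:39237389-39296855, with 21.0 and 27.8 kb in the LK2 libraries, 1.78 kb in LK2_GFP and 0 in LK2_DNp63. A pair of them lay in the chr9 cluster, at chr9:73310035-73325831 (6.97 and 6.86 kb in LK2, 0 in LK2_GFP) and chr9:73360285-73378411 (5.49 and 7.27 kb, 0 in LK2_GFP). The fourth, chr17:55773123-55780548, had 5.42 and 5.70 kb in LK2 and 0 in LK2_GFP, where it held 2 Sox2 peaks that the LK2 list did not have.

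Exclusive regions of other pairs of lines were narrower. The 42 other pairs with at least 100 exclusive regions had median widths of 884.5 to 2041 bp, against 2410 bp for LK2 and NCI-H520, and 1.6% to 29.2% of their regions lay in clusters, against 36.9%. The pair with the next most exclusive regions, 1482 in HCC2450 and Calu-1, had the highest of these shares, and the part of the number of regions in this share was not tested. Exclusive regions over 10 kb made up at most 3.2% of any such pair, against 4.29% for LK2 and NCI-H520. LK2 and NCI-H520 have 2 libraries each and the other lines 1, and the part of this in the comparison was not tested.

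Chromosomes differed in how much of the acetylation common to both lines was theirs alone. The exclusive share was 23.5% on chromosome 21, 21.9% on chromosome 18 and 19.1% on chromosome 8, and 1.73% on chromosome 19.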
